A study of Homo sapiens with 6 samples.

Results

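The early response genes described here are the EGR, NR4A and IER genes together with SRF, a group of 10 genes chosen by name out of 55882 genes in a table of RNA counts: EGR1, EGR2, EGR3, NR4A1, NR4A2, NR4A3, IER2, IER3, IER5 and SRF. They were measured in 3 libraries of p53 KO cells and 3 libraries of p53 WT cells. Both kinds of cell are DIvA cells, which derive from the human osteosarcoma line U2OS and carry a fusion of AsiSI, a bacterial restriction enzyme, to a receptor domain that responds to 4-hydroxytamoxifen (4-OHT), which brings the enzyme to the nucleus to cut DNA. All 6 libraries came from cells given 300 nM 4-OHT for 5 h, and cells without 4-OHT were not analysed here, so the values compare genotypes after cutting and not the response to cutting. Whether replicates were separate cultures, and whether the p53 KO cells are a single clone, is not stated in the labels. The p-values therefore measure only the spread between these samples, which may be technical.

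Immediate early genes are transcribed within minutes of a growth, stress or damage signal, without new protein synthesis. A common route runs from the ERK and p38 kinases to the transcription factor SRF and its ETS-family partners, which bind the CArG box and neighbouring sequence in the promoters of such genes, while cAMP signalling acts on many of them through CREB and the sequence element it binds, the CRE. EGR proteins are zinc-finger transcription factors, NR4A proteins are nuclear receptors that act without a known natural ligand, and IER is a name shared by genes found through their fast induction, whose proteins are not all related to each other.

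After 5 h of 4-OHT the members did not move as a block. NR4A1 and IER2 rose and EGR1, IER3 and IER5 fell in p53 KO cells, while EGR2, EGR3, NR4A2, NR4A3 and SRF did not pass the threshold, an adjusted p under 0.05 in edgeR's quasi-likelihood test with Benjamini-Hochberg adjustment over all genes tested. All 10 members passed the filter on low counts. The 2 members that rose stand beside 12.1% of all 22352 genes tested that were higher in p53 KO cells, and the 3 that fell beside 14.4% that were lower. In either direction 26.5% of all genes tested passed. IER2 no longer passed with any of 4 single libraries left out, which left 1 member higher. For 6 of the 10 members the genotypes had no overlap in range, against 40.8% of all genes tested.

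**Figure D1:**
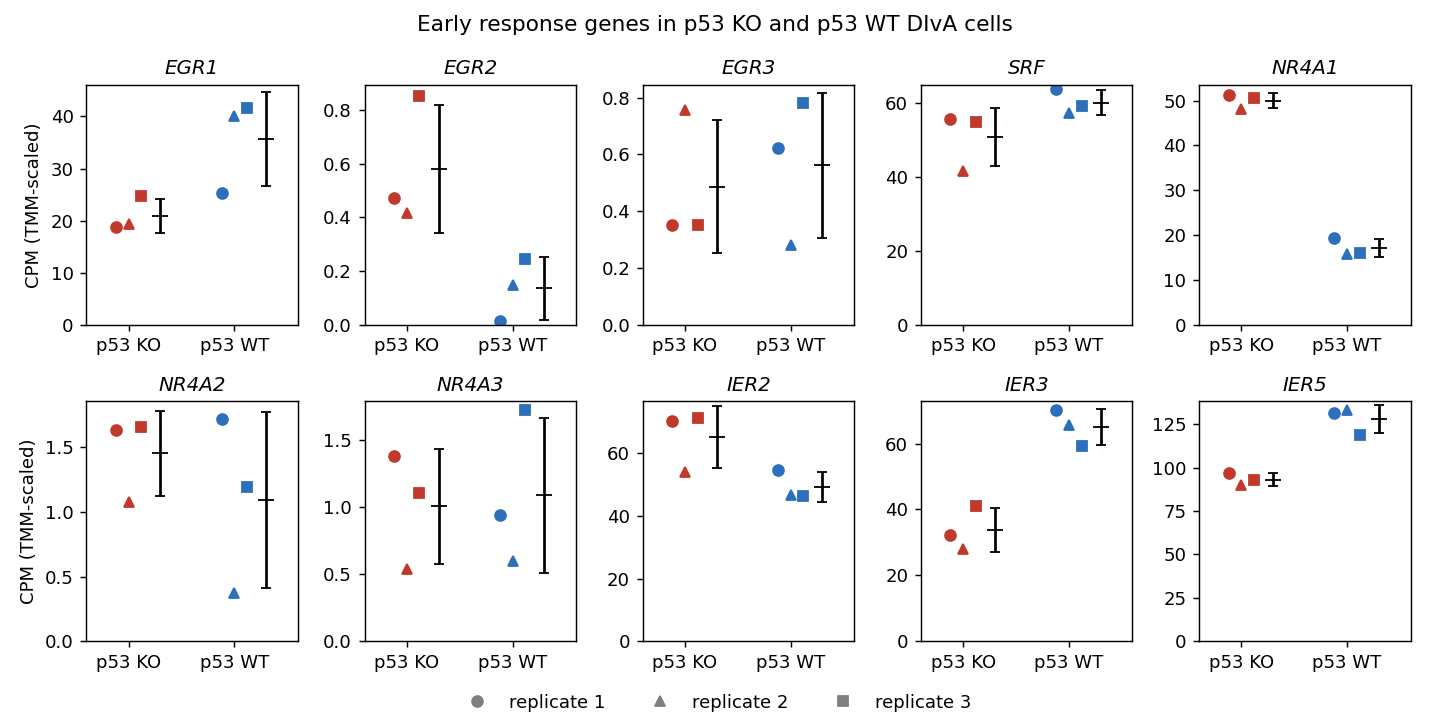
Level of each early response gene in CPM (vertical axis, counts scaled to library size with TMM factors) in p53 KO libraries (red, left) and p53 WT libraries (blue, right), with a marker shape for each replicate number and the mean ± SD in black (n = 3 each). NR4A1 lies between 48.2 and 51.3 CPM in p53 KO libraries and between 15.7 and 19.5 CPM in p53 WT libraries, while IER3 lies between 28.0 and 41 CPM in p53 KO libraries and between 59.3 and 70.2 CPM in p53 WT libraries.

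The genotype was checked first. CDKN1A, the cyclin-dependent kinase inhibitor that p53 induces, averaged 45.8 ± 3.68 CPM in p53 KO libraries and 542 ± 27.0 CPM in p53 WT libraries (SD, n = 3 each), and MDM2, the ubiquitin ligase that p53 induces, averaged 57.6 ± 13.3 CPM in p53 KO libraries and 221 ± 29.6 CPM in p53 WT libraries (SD, n = 3 each). Total counts ranged from 20393909 to 72621732 in p53 KO libraries and from 24347609 to 79767519 in p53 WT libraries. A gene without counts could have up to 3 counts, or 0.0376 to 0.147 CPM depending on the library, a limit that covers counting error alone because the reads carried no molecular identifiers. Of the 12 markers of the osteoblast lineage and mesenchyme, SP7 and IBSP had no counts in any library, 9 were tested, 6 fell and 1 rose, and their summed level was 3782 to 4163 CPM in p53 KO libraries and 6841 to 7317 CPM in p53 WT libraries. The 8 epithelial markers summed to 20.8 to 28.5 CPM in p53 KO libraries and 10.4 to 16.8 CPM in p53 WT libraries, with only CLDN7 passing the threshold, and CDH1, the defining cadherin, at 5.24 ± 1.99 CPM in p53 KO libraries and 3.37 ± 1.42 CPM in p53 WT libraries (SD, n = 3 each). Of 7 leukocyte markers LYZ was among those with no counts, CD68 fell, and the sum was 5.86 to 8.25 CPM in p53 KO libraries and 13.0 to 15.2 CPM in p53 WT libraries, while 5 endothelial markers summed to 3.21 to 5.01 CPM in p53 KO libraries and 3.09 to 4.23 CPM in p53 WT libraries. The part of these markers in the results below was not tested, and in such bulk samples fewer cells with a transcript and less of it per cell cannot be told apart.

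SRF, serum response factor, is the regulator that many of the other members share. It had 55.7, 41.7 and 54.7 CPM in p53 KO replicates 1, 2 and 3, against 63.7, 57.1 and 59.1 CPM in p53 WT replicates 1, 2 and 3. All 3 p53 KO libraries lay below all 3 p53 WT libraries, but the gap between the nearest libraries was small beside the drop in p53 KO replicate 2. The log2 fold change, p53 KO over p53 WT, was -0.24 (SE 0.13, 95% interval -0.51 to 0.025, adjusted p = 0.181 by edgeR), which did not pass the threshold. Leaving out p53 KO replicate 2, the lowest library, moved it to -0.12.

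Among the RefSeq promoter windows for the members, SRF, EGR1 and EGR2 each have a single window that holds CArG boxes. Their upstream bases are shown with matches to sequences that SRF and CREB are known to bind. Whether SRF or CREB acts through these matches was not tested. Windows for EGR1, EGR2, NR4A1, NR4A3, IER2, IER5 and SRF were used, and those of EGR3, NR4A2 and IER3 were not analysed here. The bases are the 250 upstream of a start site on GRCh38.p14, 5′ to 3′ on the strand of the gene, with CArG boxes and the core of the CRE in capitals.

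EGR1, chr5:138465229-138465478, plus strand: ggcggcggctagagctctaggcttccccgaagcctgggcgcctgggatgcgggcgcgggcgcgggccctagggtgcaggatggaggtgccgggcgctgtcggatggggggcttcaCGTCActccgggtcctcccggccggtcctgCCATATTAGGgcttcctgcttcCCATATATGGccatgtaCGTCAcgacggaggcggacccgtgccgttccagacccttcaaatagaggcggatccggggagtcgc

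EGR2, chr10:62816367-62816616, minus strand: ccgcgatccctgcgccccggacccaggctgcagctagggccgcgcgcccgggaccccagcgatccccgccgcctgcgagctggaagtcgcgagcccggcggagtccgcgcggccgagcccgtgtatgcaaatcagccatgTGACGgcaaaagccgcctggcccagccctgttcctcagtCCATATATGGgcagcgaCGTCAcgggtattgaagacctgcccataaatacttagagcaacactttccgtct

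SRF, chr6:43171019-43171268, plus strand: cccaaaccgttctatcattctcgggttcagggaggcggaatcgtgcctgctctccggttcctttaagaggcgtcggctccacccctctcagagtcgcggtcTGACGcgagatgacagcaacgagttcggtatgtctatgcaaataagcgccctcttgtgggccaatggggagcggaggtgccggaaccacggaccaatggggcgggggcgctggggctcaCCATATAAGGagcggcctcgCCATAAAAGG

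The EGR1 window holds 2 CArG boxes and 2 CRE cores, a CRE core being TGACG on either strand (it reads CGTCA where it lies on the opposite strand). The EGR2 window shown, the only one of 3 in which a motif searched was found, holds 1 CArG box and 2 CRE cores, and the SRF window shown holds 2 CArG boxes, the nearer of which ends at the base before the start site, and 1 CRE core. The SRF window shown also holds 1 copy of GCGGGGGCG, a sequence that EGR proteins bind. The other SRF window holds none of the motifs searched. A CArG box lies in 1.16% of all 35116 RefSeq windows of the same length, a CRE core in 21.2% and GCGGGGGCG in 4.72%. The NR4A3 window holds 4 CRE cores and that of IER2 holds 1, while both NR4A1 windows and that of IER5 hold none of the motifs searched. Of the upstream bases, 223 in the IER2 window lie in exons annotated in GENCODE, against 30 for NR4A3 and 24 in the other SRF window. The remaining windows have 0 such bases. Only these windows were searched, so a lack of matches does not cover other start sites of NR4A1 or of any other member. The other motifs searched on both strands were GCGTGGGCG (0.72% of windows), the full CRE TGACGTCA (1.65%), which contains the core, the AP-1 site TGANTCA (6.57%), the NR4A site AAAGGTCA (1.05%), a single arm of the p53 response element (5.57%) and the heat shock element (0.441%), and none of the members' windows used held any of these 6. These matches describe letters in a window. The windows holding CArG boxes belong to EGR1, which fell, and to EGR2 and SRF, which did not pass the threshold.

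EGR1, the most widely studied EGR factor, activates growth and matrix genes and is itself induced through SRF. It fell in p53 KO cells, with 18.8, 19.3 and 24.7 CPM in p53 KO replicates 1, 2 and 3, against 25.3, 40.1 and 41.7 CPM in p53 WT replicates 1, 2 and 3. The groups did not overlap, but the highest p53 KO library and the lowest p53 WT library nearly met. The log2 fold change was -0.77 (SE 0.18, adjusted p = 0.00586 by edgeR), and it was between -0.98 and -0.66 with each library left out in turn, past the threshold each time.

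EGR2, known for its part in myelination and in immune cells, was near the limit of detection, with 35, 17 and 17 counts in p53 KO replicates 1, 2 and 3 and 1, 10 and 6 counts in p53 WT replicates 1, 2 and 3. On the CPM scale this was 0.473, 0.415 and 0.852 in p53 KO libraries and 0.0127, 0.149 and 0.247 in p53 WT libraries. Every p53 KO library lay above every p53 WT library, yet the estimate on the log2 scale, 2.18, had a wide error (SE 1.07, 95% interval -0.12 to 4.47, adjusted p = 0.161 by edgeR). By limma-voom it was 2.88 and passed (adjusted p = 0.0469 by limma-voom). EGR2 lies among genes that were lower, with a median log2 fold change of -0.45 over the 50 nearest expressed genes.

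EGR3, a close relative of EGR2, had 26, 31 and 7 counts in p53 KO replicates 1, 2 and 3 and 49, 19 and 19 counts in p53 WT replicates 1, 2 and 3, or 0.351, 0.757 and 0.351 CPM in p53 KO libraries and 0.623, 0.282 and 0.781 CPM in p53 WT libraries. The groups overlapped. The log2 fold change was -0.18 (SE 0.74, 95% interval -1.76 to 1.40, adjusted p = 0.894 by edgeR), so differences of several-fold either way were not detectable at this depth. EGR4, the remaining EGR gene, had counts in p53 WT replicate 1 alone, at 0.0381 CPM, and was not tested.

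EGR proteins work with the corepressors NAB1 and NAB2, of which NAB2 is also an EGR target. NAB2 averaged 36.8 ± 1.61 CPM in p53 KO libraries and 38.6 ± 5.12 CPM in p53 WT libraries, and NAB1 averaged 32.7 ± 8.86 CPM in p53 KO libraries and 33.3 ± 0.861 CPM in p53 WT libraries (SD, n = 3 each). None of the 5 tested partners passed the threshold: WT1, a zinc-finger factor with related binding sites, had a log2 fold change of 0.23, EP300 and CREBBP, acetyltransferase coactivators, had -0.28 and -0.31, NAB2 had -0.075 and NAB1 had -0.015. CREBBP fell with no filter on low counts and, separately, without p53 KO replicate 2. Over all genes tested 14.4% fell and 12.1% rose, while among 15 genes described elsewhere as EGR targets 6 fell and 4 rose. The median log2 fold change of these targets was -0.066, beside 0.0051 over all genes tested. Among those with the smallest adjusted p were CDKN1A and FN1, fibronectin, with log2 fold changes of -3.56 and -1.84. CDKN1A is also a known p53 target. The 4 that rose, chosen for naming after their values were seen, were HPSE, F3, ID3 and FLT1, and 2 rose without p53 KO replicate 1 or p53 WT replicate 1, 1 without p53 WT replicate 2, and 2 after the median of neighbouring genes was taken off.

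NR4A1, also called NUR77, an orphan nuclear receptor with reported roles in cell death and metabolism, had the largest change among the members that passed the threshold. It had 51.3, 48.2 and 50.6 CPM in p53 KO replicates 1, 2 and 3, against 19.5, 15.7 and 16.1 CPM in p53 WT replicates 1, 2 and 3. The lowest p53 KO library was far above the highest p53 WT library, and the libraries of each group lay close together. The mean was 2.93-fold higher in p53 KO cells, or 1.55 on the log2 scale (SE 0.13, adjusted p = 1.1e-06 by edgeR). Leaving out each library in turn gave values between 1.49 and 1.64, and with the median of neighbouring genes (0.14) taken off it was 1.41 (adjusted p = 2.96e-06 by edgeR).

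NR4A2, or NURR1, known for its part in dopamine neurons, had 1.63, 1.07 and 1.65 CPM in p53 KO replicates 1, 2 and 3 and 1.72, 0.372 and 1.19 CPM in p53 WT replicates 1, 2 and 3. The highest and the lowest library of all were both p53 WT libraries. The log2 fold change was 0.41 (SE 0.53, 95% interval -0.73 to 1.55, adjusted p = 0.64 by edgeR), and -0.019 without p53 WT replicate 2.

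NR4A3, or NOR1, had 1.38, 0.537 and 1.10 CPM in p53 KO replicates 1, 2 and 3 and 0.941, 0.595 and 1.73 CPM in p53 WT replicates 1, 2 and 3, and the groups overlapped. Its log2 fold change was -0.077 (SE 0.55, 95% interval -1.27 to 1.11, adjusted p = 0.942 by edgeR), and it ran from -0.41 to 0.38 with each library left out in turn. NR4A2 and NR4A3 had 22 to 135 counts per library.

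The ratio of NR4A1 to its relatives was compared in each library. The log2 ratio of NR4A1 to NR4A3 counts was 5.21, 6.45 and 5.49 in p53 KO replicates 1, 2 and 3 and 4.36, 4.71 and 3.20 in p53 WT replicates 1, 2 and 3. The groups did not overlap, with a difference of 1.63, and the two-sided exact permutation test gave p = 0.1, the smallest that 3 against 3 libraries can give, or 0.15 adjusted over the 9 pairs of relatives compared. The log2 ratio of NR4A1 to NR4A2 averaged 5.12 ± 0.307 in p53 KO libraries and 4.20 ± 1.02 in p53 WT libraries (SD, n = 3 each), and the groups overlapped (exact permutation p = 0.3, adjusted 0.338). The difference of 0.92 became 0.56 without p53 WT replicate 1 and 1.503 without p53 WT replicate 2. With 3 against 3 libraries the exact test cannot reach 0.05 for any ratio, so its p-values do not decide whether NR4A1 differed from its relatives.

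NR4A proteins bind DNA alone or beside retinoid X receptors, and their genes are induced through CREB and MEF2 factors. Of 11 tested partners and regulators 3 rose and 1 fell, beside 12.1% and 14.4% of all genes tested. Their median log2 fold change was 0.17. The 3 with the smallest adjusted p were MEF2A and MEF2C, which rose by 0.96 and 1.95 on the log2 scale, and RXRA, which fell by 0.42. MEF2A had 0.42 with the median of its neighbours removed. MEF2C had 4.92 ± 0.912 CPM in p53 KO libraries and 1.25 ± 0.486 CPM in p53 WT libraries (SD, n = 3 each). RXRA lies among genes that were lower (local median -0.56) and had 0.13 with that median removed (adjusted p = 0.488 by edgeR), and its call was also lost without p53 KO replicate 1 or p53 WT replicate 2, after which no partner was lower. Without p53 KO replicate 3, 5 partners were higher.

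IER3, also called IEX-1, acts on cell survival and ERK signalling. It had 32.3, 28.0 and 41 CPM in p53 KO replicates 1, 2 and 3, against 70.2, 65.8 and 59.3 CPM in p53 WT replicates 1, 2 and 3. The groups lay well apart. Its log2 fold change was -0.95 (SE 0.14, adjusted p = 0.000173 by edgeR), a mean 1.93-fold higher in p53 WT cells, and -1.13 with the median of neighbouring genes taken off.

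IER5, which binds protein phosphatase PP2A and the heat shock factor HSF1, had 96.7, 89.8 and 92.8 CPM in p53 KO replicates 1, 2 and 3, against 131, 133 and 118.5 CPM in p53 WT replicates 1, 2 and 3. The groups did not overlap and the libraries of each lay close together. The log2 fold change was -0.46 (SE 0.096, adjusted p = 0.00277 by edgeR), or a mean 1.37-fold higher in p53 WT cells.

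IER2, a small nuclear protein, had 70.3, 53.9 and 71.4 CPM in p53 KO replicates 1, 2 and 3 and 54.8, 46.6 and 46.3 CPM in p53 WT replicates 1, 2 and 3. The lowest p53 KO library lay just below the highest p53 WT library. IER2 rose by 0.40 on the log2 scale (SE 0.13, adjusted p = 0.0314 by edgeR). This call was lost without p53 KO replicate 1 (0.35, adjusted p = 0.12 by edgeR), p53 KO replicate 3 (0.35, adjusted p = 0.0591 by edgeR), p53 WT replicate 2 (0.36, adjusted p = 0.137 by edgeR) or p53 WT replicate 3 (0.35, adjusted p = 0.126 by edgeR). IER2 lies among genes with a median log2 fold change of 0.23, and it had 0.17 with that median removed (adjusted p = 0.405 by edgeR).

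**Figure D2:**
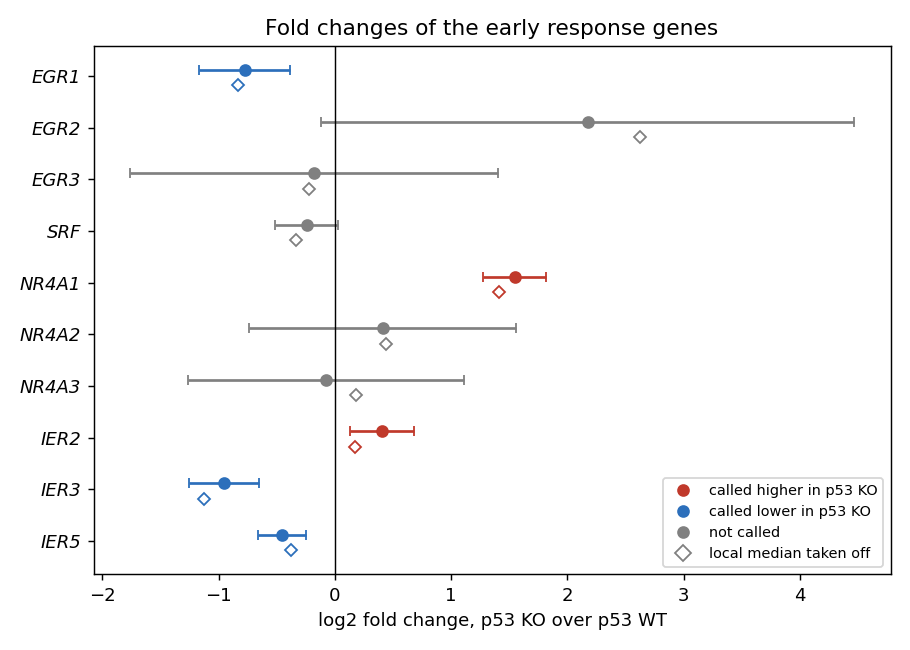
Log2 fold change of each early response gene, p53 KO over p53 WT (horizontal axis), with filled circles for the fit to all 6 libraries, bars for its 95% interval and open diamonds for the value after the median of the 50 nearest expressed genes was taken off. NR4A1 stands at 1.55 and IER3 at -0.95 with narrow intervals, IER2 moves to 0.17 at the diamond, and the intervals of EGR2, EGR3, NR4A2, NR4A3 and SRF include 0.

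Within the IER genes the ratios did not overlap between genotypes. The log2 ratio of IER2 to IER3 counts was 1.12, 0.946 and 0.799 in p53 KO replicates 1, 2 and 3 and -0.36, -0.50 and -0.36 in p53 WT replicates 1, 2 and 3. The difference between genotypes was 1.36. The sign of the ratio does not show which gene was higher, because the counts were not divided by gene length. The ratio of IER2 to IER5 differed by 0.85 and that of IER3 to IER5 by -0.51, again without overlap. Each of these 3 ratios had an exact permutation p = 0.1, the smallest the design allows, and 0.15 adjusted over the 9 pairs. Among the EGR genes the ratio of EGR1 to EGR2 differed by -3.35 and that of EGR2 to EGR3 by 2.77 (exact permutation p = 0.1 for each, adjusted 0.15), both resting on the low counts of EGR2. The difference in the ratio of EGR2 to EGR3 was 1.504 without p53 WT replicate 1, the library with 1 count of EGR2, and 1.83 with a prior count of 5 in place of 0.5. The ratio of EGR1 to EGR3 overlapped between genotypes (difference -0.58, exact permutation p = 0.6), and that of NR4A2 to NR4A3 differed by 0.71 with overlap (exact permutation p = 0.3, adjusted 0.338). Single libraries moved both: EGR1 to EGR3 had -0.17 without p53 KO replicate 2, -0.94 without p53 WT replicate 1 and -0.049 without p53 WT replicate 2. NR4A2 to NR4A3 had 1.20 without p53 WT replicate 1 and 0.43 without p53 WT replicate 2.

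**Figure D3:**
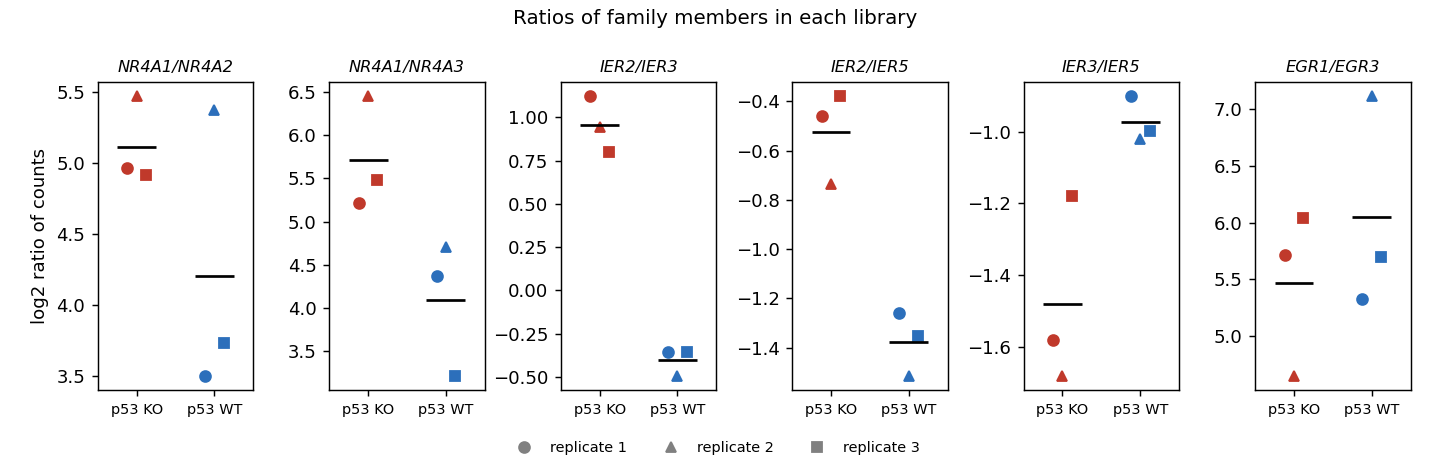
Log2 ratio of the counts of relatives (vertical axis, its range set for each panel) in p53 KO libraries (red, left) and p53 WT libraries (blue, right), with a marker shape for each replicate number and a line at the mean of 3 libraries. IER2/IER3 lies between 0.799 and 1.12 in p53 KO libraries and between -0.50 and -0.36 in p53 WT libraries, and EGR1/EGR3 and NR4A1/NR4A2 overlap.

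Of the 9 tested relatives and partners of the IER proteins 2 rose and 1 fell, beside 12.1% and 14.4% of all genes tested. Their median log2 fold change was -0.077. IER5L, a paralog of IER5 named after its values were seen, had 7.02 ± 2.51 CPM in p53 KO libraries and 10.99 ± 3.85 CPM in p53 WT libraries (SD, n = 3 each) and did not pass. It fell with no filter on low counts and, separately, without p53 WT replicate 2. PPP2R2A, a PP2A subunit, had 0.34, MAPK3, which is ERK1, had 0.34, and IER3IP1, whose product binds IER3, had -0.44 on the log2 scale. These calls were unsteady: none was higher without p53 KO replicates 1 or 2 or p53 WT replicates 1 or 3, 1 was higher without p53 KO replicate 3 or p53 WT replicate 2, and none was lower without p53 KO replicate 1 or p53 WT replicate 1. IER3IP1 also lost its call without p53 WT replicate 2, and it had 0.11 (adjusted p = 0.612 by edgeR) after the median of neighbouring genes was taken off. HSF1, the heat shock factor that IER5 binds, averaged 233 ± 14.3 CPM in p53 KO libraries and 244 ± 12.7 CPM in p53 WT libraries (SD, n = 3 each), a log2 fold change of -0.063 that did not pass. Of 10 HSF1 target genes 9 rose and 0 fell, with a median of 0.54, beside 12.1% of all genes tested that were higher. The number that rose was 6 without p53 KO replicate 1 and 7 without p53 WT replicate 1. HSPA8 and HSPD1, named after their values were seen, each lost the call in 6 of the 14 alternatives and left-out libraries. DNAJB1, named likewise, lost it in 4. HSPA1A and HSPA1B, near-identical HSP70 genes whose reads cannot be assigned with certainty, had 1.99 and 1.87, and BAG3, a cochaperone, had 0.55, or 1.08 with the median of its neighbours removed. HSP90AA1, the 1 target that did not rise (-0.24), fell with no filter on low counts, by limma-voom and without p53 WT replicate 1, and it rose (0.71) with the median of its neighbours, -0.95, taken off.

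SRF acts with cofactors of the myocardin and ETS families. Of 7 tested cofactors 3 fell and 1 rose, beside 14.4% and 12.1% of all genes tested. Their median log2 fold change was -0.50. MKL1, an actin-regulated coactivator also called MRTF-A, averaged 32.4 ± 4.01 CPM in p53 KO libraries and 63.6 ± 6.72 CPM in p53 WT libraries (SD, n = 3 each), a log2 fold change of -0.98, or -0.62 with the median of neighbouring genes taken off. Its relative MKL2 had -0.035 and did not pass, and MYOCD, myocardin, had -0.50 at under 1 CPM and did not pass. Among the ETS partners ELK3 fell by 0.63, ELK4 had -0.17 and did not pass, and ELK1 rose by 0.80 in a stretch of genes that were higher (local median 0.66), with 0.13 (adjusted p = 0.44 by edgeR) with that median removed, which left no cofactor higher. FLI1 was not tested.

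Of 19 tested cytoskeletal targets of SRF, SRF included, 8 fell and 3 rose, beside 14.4% and 12.1% of all genes tested. Their median log2 fold change was -0.24. ACTA2, smooth muscle actin, had 1.33 ± 0.248 CPM in p53 KO libraries and 12.7 ± 0.666 CPM in p53 WT libraries (SD, n = 3 each), a log2 fold change of -3.28. ACTA2 lies beside FAS, a p53 target that had -3.58, and how the counting treated strand is not given in the sources used here. CNN1, calponin, rose by 1.48, and FHL2, a LIM-domain protein, fell by 0.86. The 3 that rose were CNN1, MYL9 and FHL1, of which MYL9 and FHL1 were named after their values were seen.

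Upstream, 5 of 22 genes of the ERK and p38 cascade rose and 4 fell, beside 12.1% and 14.4% of all genes tested. Their median log2 fold change was 0.032. EGFR, the receptor for epidermal growth factor, had 26.9 ± 4.26 CPM in p53 KO libraries and 90.4 ± 11.1 CPM in p53 WT libraries (SD, n = 3 each), a log2 fold change of -1.75. ARAF, a RAF kinase, rose by 0.88 in a stretch of genes that were higher and had 0.28 (adjusted p = 0.105 by edgeR) with its neighbours' median removed, and RPS6KA4, a kinase that acts on chromatin and CREB downstream of ERK and p38, fell by 0.63. Without p53 WT replicate 3, 3 genes of the cascade were higher, and after the median of neighbouring genes was taken off 2 were lower.

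Of 40 other immediate early genes tested, 17 fell and 5 rose, beside 14.4% and 12.1% of all genes tested. The median over the list was -0.24 on the log2 scale. Over the distinct genes of all lists together 54.9% passed the threshold, and the lists were chosen with earlier results of these data known. A shift of any list as a set was not tested. The smallest adjusted p belonged to BTG2, which restrains proliferation and is a p53 target, ARC, and PLK3, a stress-responsive kinase, with log2 fold changes of -2.99, -1.14 and -1.39. ARC averaged 31.3 ± 2.40 CPM in p53 KO libraries and 68.8 ± 5.68 CPM in p53 WT libraries (SD, n = 3 each). The 5 that rose, named after their values were seen, were DUSP2, SPRY4, JUNB, DUSP1 and CYR61, and 3 rose without p53 KO replicate 1 or without p53 WT replicate 3. JUNB, an AP-1 subunit, averaged 35.7 ± 3.22 CPM in p53 KO libraries and 15.6 ± 0.720 CPM in p53 WT libraries, and DUSP1, a phosphatase of MAP kinases, averaged 87.1 ± 3.07 CPM in p53 KO libraries and 46.0 ± 4.82 CPM in p53 WT libraries (SD, n = 3 each). These moved in the direction of NR4A1, while FOS (-2.06) and JUN (-0.50), also named after their values were seen, moved in the direction of EGR1. FOS, averaging under 2 CPM in a stretch of genes that were lower, had -1.19 with its neighbours' median removed (adjusted p = 0.0937 by edgeR).

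**Figure D4:**
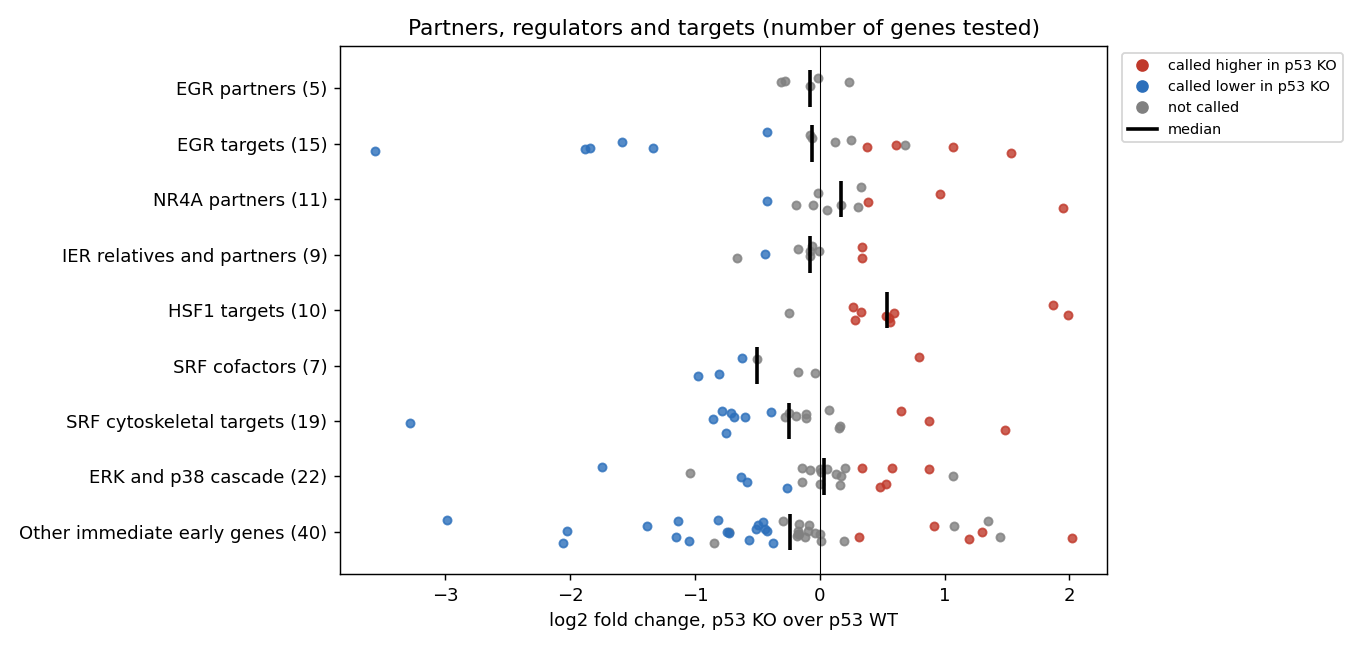
Log2 fold change, p53 KO over p53 WT (horizontal axis), of each tested gene in the lists of partners, regulators and targets (rows, with the number tested), in red where it rose, in blue where it fell and in grey where it did not pass the threshold, with a black bar at the median. The EGR partners hold no coloured point, 9 of 10 HSF1 targets lie to the right, and 17 of 40 other immediate early genes are blue. Over all genes tested 12.1% rose and 14.4% fell.

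Levels can be compared between genes only per length, and were here divided by the exon length of each gene in GENCODE 29, which may differ from the annotation of the counts. This length is the union of all annotated exons, 7295 bases for NR4A1 and 3138 for EGR1. It may exceed the length of the transcripts expressed. Per kb, IER3, IER5 and IER2 had 24.9, 22.2 and 21.2 CPM in p53 KO cells and 48.0, 30.5 and 16.0 CPM in p53 WT cells. SRF had 12.1 CPM per kb in p53 KO cells and 14.3 in p53 WT cells. NR4A1 had 6.86 CPM per kb in p53 KO cells and 2.34 in p53 WT cells. EGR1 had 6.66 in p53 KO cells and 11.4 in p53 WT cells. How close NR4A1 and EGR1 lay in either genotype depends on the lengths used. EGR2, EGR3, NR4A2 and NR4A3 had at most 0.367 CPM per kb in p53 KO cells and at most 0.276 CPM per kb in p53 WT cells.

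In GENCODE 29 an antisense gene overlaps NR4A1 (AC025259.3), IER2 (AC011446.2), IER3 (IER3-AS1) and EGR3 (AC055854.1). With the strand setting of the counting unknown, reads of these genes and of their antisense partners may not have been told apart.

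Libraries differed within a genotype in ways that many members shared. Among the p53 KO libraries replicate 2 was the lowest for 8 of the 10 members, and among the p53 WT libraries replicate 2 was the lowest for 5. The same share over all genes tested was not computed, so these counts are not shown to be particular to the members. Replicate 2 was the highest library for EGR3 among the p53 KO libraries and for IER5 among the p53 WT libraries.

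Among genes averaging 5 CPM or more, those whose pattern over the 6 libraries was most like that of NR4A1 were TFDP2, IL18 and ANXA3, with root mean square differences of 0.0625, 0.0698 and 0.0907 between log2 CPM values centred on each gene's mean. For IER5 they were C11orf24, NCBP2 and SF3A3 (0.0105, 0.0313 and 0.0332), and for IER3 they were MRPL28, TXNRD2 and PCDHGA8 (0.0551, 0.0617 and 0.0667). For EGR1 they were DOK3, RP11-216B9.6 and SRGAP1 (0.133, 0.135 and 0.142), for IER2 WBSCR22, HOXC9 and CTC-250I14.6 (0.0415, 0.0466 and 0.0467), and for SRF NCAPH2, SURF1 and SOX13 (0.0357, 0.0383 and 0.042). A pattern over 6 libraries includes the genotype difference. TFDP2, IL18 and ANXA3 had log2 fold changes of 1.56, 1.5 and 1.52, against 1.55 for NR4A1. Whether genes alike in pattern are regulated together was not tested. The nearest genes to NR4A2 and NR4A3 were several times farther off than those to NR4A1, with MIR3687 at 0.312 from NR4A2 and NEK3 at 0.305 from NR4A3. NR4A2 and NR4A3 had 22 to 135 counts per library and NR4A1 had 391 to 3801. The part of counting error in these distances was not tested.

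The authors' deposited table gives log2 fold changes as p53 WT over p53 KO, the opposite direction, a reading that rests on CDKN1A being positive there at 3.54. An adjusted p under 0.05 was given to 5 members by the authors' deposited table, NR4A1 at -1.57, IER2 at -0.43, EGR1 at 0.75, IER3 at 0.93 and IER5 at 0.43, and once turned round all 10 members had the direction found here. The authors' deposited table marks 124 of its 35987 genes as intersecting a p53 cistrome. None (0) of the 10 members carries that mark in the authors' deposited table, while all 8 p53 target genes used as a check here do. The 8 were chosen as known p53 targets, and whether p53 acts on the members was not tested. Those 8, which include FAS, DDB2 and BBC3, all fell in p53 KO cells, with a median log2 fold change of -2.49.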

How the data were processed

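Stranded polyadenylated RNA libraries of 6 samples were grouped by their titles. The authors deposited raw counts per gene symbol. The submitters' processing notes name fastp (0.21.0), HISAT2 (2.1.0), DESeq2 (1.3.6) and the build GRCh37, or hg19. No counting tool, annotation or strand setting is given in the sources used here. A comparison table, also deposited by the authors, has per gene a normalised mean (signal), a log2 fold change, a test score and p-values. Its sign of log2 fold change is opposite to that of its test score in every row.

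Counts were fitted with edgeR 4.0.16 in R 4.3.3 (TMM factors 0.979 to 1.02, filterByExpr, robust quasi-likelihood F-test) over 22352 genes, with Benjamini-Hochberg adjustment and a threshold of 0.05. SE was the log2 fold change over the root of F. Ratios used a prior count of 0.5 and an exact permutation test. Alternatives were RLE or no composition factors, no filter, 1 CPM in 3 libraries, DESeq2 1.42.0, limma-voom (limma 3.58.1), the replicate number as a block, each library left out, and the median log2 fold change of the 50 nearest protein-coding genes (at least 2 CPM, RefSeq order on GRCh38.p14) taken off as an offset. The fit and the local median were tested on simulated data. The members and lists were chosen with earlier results of these data known. Genes were named by rule: all members, the EGR partners and SRF cofactors, the 3 genes of each other list with the smallest adjusted p among those past the threshold, and the 3 genes nearest in pattern to each member of at least 1 CPM. Of 187 genes in the lists, members and markers, 186 matched by symbol and 1, PECAM1, did not. A few genes chosen by this naming rule are not reported here.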

Additional observations from a re-analysis of the deposited data

How the results depend on the processing

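NR4A1, EGR1, IER3 and IER5 passed the threshold in the same direction under all 14 alternatives and left-out libraries, and 3 members were lower under each. The number of members higher in p53 KO was 2, or 1 with the median of neighbouring genes taken off and 1 to 2 with a library left out, since IER2 was then at 0.17 with the median taken off and at 0.35 to 0.52 with a library left out. By limma-voom 3 members were higher, since EGR2 also passed at 2.88 on the log2 scale, where edgeR gave 2.18. The sign of NR4A3 turned under limma-voom (0.23) and with the median of neighbouring genes taken off (0.18), and its values with a library left out ran from -0.41 to 0.38. With a library left out EGR3 ran from -0.66 to 0.10 and NR4A2 from -0.019 to 0.94. The cause of these changes was not tested. Same-numbered libraries deviated from their group means with correlations of 0.0072, 0.064 and -0.097 across genes. Libraries with different numbers had correlations from -0.218 to 0.186. Total counts fell from replicate 1 to replicate 3 in both genotypes. With 3 libraries a group these values do not decide whether replicate numbers pair the samples. With the replicate number as a block 2297 genes were higher and 2862 lower, against 2697 and 3227 without it, no member changed its call, and the median same-number difference of the EGR1 to EGR3 ratio was 0.34 against -0.58 for the group means. Of 280 counts of list genes under an alternative, 32 moved by over 1.5 times. Depth limits EGR2, EGR3, NR4A2 and NR4A3, which had 1 to 135 counts per library. The stricter filter of 1 CPM in 3 libraries left EGR2 and EGR3 untested.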
